A study of Drosophila melanogaster with 6 samples.

Results

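The structural cuticle protein genes of Drosophila encode the proteins that, together with the polysaccharide chitin, make up the cuticle that epidermal cells secrete on their apical side. They were taken from the gene table by their symbols, as all genes of the Cpr, Twdl (Tweedle), Ccp84, Lcp and Edg series together with Pcp and Acp65Aa. This gave 122 of the 14239 genes, namely 70 Cpr, 25 Tweedle, 15 Lcp, 7 Ccp84 and 3 Edg genes, and Pcp and Acp65Aa. The rule reads symbols only, so cuticle proteins listed under other names are outside it.

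The values are mRNA-seq levels of sorted wing pouch cells of Drosophila melanogaster, in a control group and an ablated group of 3 samples each. Cells of both groups carried 1 copy of nub-GFP, an insertion that reports activity of the wing gene nubbin through GFP, and were sorted for GFP after dissociation with TrypLE. Both groups also carried rn-Gal4, which is active in most of the wing pouch, and the temperature-sensitive repressor GAL80ts, and the ablated group alone carried UAS-rpr, which drives the cell death gene reaper. All larvae were grown at 18 °C, moved to 30 °C for 24 h early in the third larval instar and dissected after 24 h of recovery, when the ablated discs hold a regeneration blastema, and every sample pooled many discs from several days of dissection. Levels are in FPKM, which scales the fragments of a gene by its transcript length and by library size, so genes can be compared with each other. There is 1 deposited FPKM per gene and group, taken over the samples of that group. No spread between samples is known for these values, no test between the groups was run, and every difference below is a difference between 2 group values. Depth behind a single gene is unknown.

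The genes are grouped here by the start of their symbols, and these groups need not match protein families. Cpr proteins carry the Rebers-Riddiford region, which binds chitin and which proteins under other names can carry too. The Cpr genes include Cpr56F, which encodes the elastic protein resilin. Tweedle proteins form a separate insect family, and mutations in several of them shorten the larval body. The other names record the stage or stimulus by which the genes were found: larval cuticle for Lcp, pupal cuticle for Pcp, adult cuticle for Acp65Aa, and dependence on the molting hormone ecdysone in imaginal discs for Edg. Imaginal disc cells secrete pupal and adult cuticle during metamorphosis, after the larval stage sampled here.

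Most cuticle protein genes were near 0 in the pouch. At least 1 FPKM in the higher of the 2 groups was reached by 45 of the 122 genes (36.9%), against 61.4% of all genes in the table. The genes that reached it were 30 Cpr, 10 Tweedle, 2 Lcp and 2 Edg genes and Pcp. None of the 7 Ccp84 genes did, nor did Acp65Aa. Edg78E (1.02 FPKM in the control group and 0.745 FPKM in the ablated group) and Lcp2 (0.983 and 1.04 FPKM) lay just above this minimum, and Cpr62Ba (0.823 and 0.983 FPKM) just under it.

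Among the 45 measured genes, some of the most abundant were far apart between the groups, in both directions. A log2 ratio, ablated over control, of at least 1.3 was reached by 11 genes, and 7 genes were at -1.3 or lower. These are 24.4% and 15.6% of the 45 genes. The study uses the same fold threshold together with a p-value limit. Here the fold was used alone, so the genes counted need not be those the study lists. Of the 8694 genes of the table with at least 1 FPKM and a ratio, 5.73% and 2.07% passed the same thresholds. Several of the 11 and 7 genes passed the minimum only through the group where they were higher. Among those past 1.3, Cpr47Ec, Cpr76Bc, TwdlM and Lcp9 were under 1 FPKM in the control group. Among those past -1.3, Cpr30F, Cpr47Ee, TwdlX and TwdlY were under 1 FPKM in the ablated group. With 1 FPKM added to both groups the numbers were 6 and 2, against 2.14% and 1.72% of all genes. The median log2 ratio of the 45 genes was 0.20 and that of the 8694 genes -0.02, while the middle 50.0% of the ratios ran from -0.51 to 1.21 for the cuticle protein genes and from -0.32 to 0.36 for all genes. Genes of low level tend to be higher in the ablated group across the whole table. Measured against genes of like mean level, 9 cuticle protein genes were past the threshold in each direction. Of all 8694 genes, 3.232% were past 1.3 and 2.496% past -1.3 on this measure. The median of the cuticle protein genes was then -0.29, so the sign of the median depended on this choice.

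**Figure D1:**
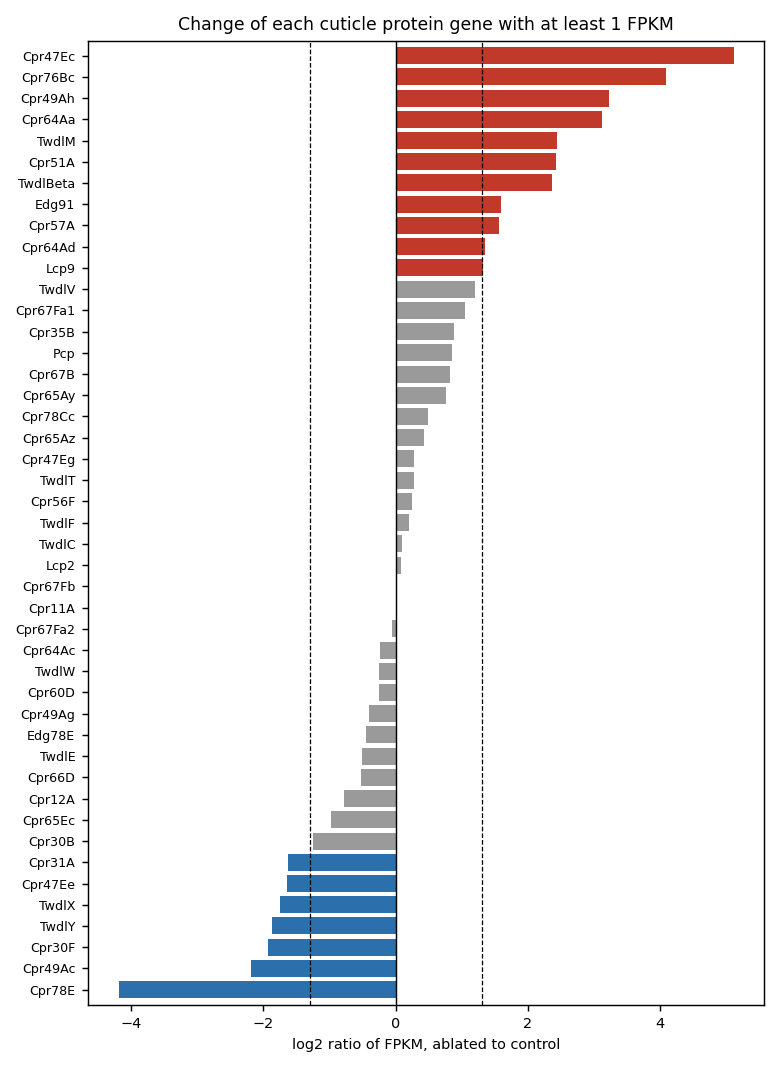
The log2 ratio of FPKM, ablated over control (horizontal axis), of the 45 cuticle protein genes with at least 1 FPKM in either group, 1 bar per gene, with dashed lines at 1.3 and -1.3. The 11 red bars lie at or above 1.3, the 7 blue bars at or below -1.3, and the 27 gray bars between them.

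The gene with the highest level was Cpr78E, which lies on chromosome arm 3L (21659554 to 21660080, release 5 of the genome). No other cuticle protein gene of the list lies within 20 kb of it. Cpr78E had 517 FPKM in the control group and 28.4 FPKM in the ablated group, an 18.2-fold lower value and a log2 ratio of -4.19. This ratio ranked 16 from the bottom of the 8694 genes. In the control group its level stood at percentile 97.7 of these genes, and in the ablated group at percentile 65.9. Cpr49Ac, on arm 2R (8274472 to 8277562), had 106 FPKM in the control group and 23.4 FPKM in the ablated group, a log2 ratio of -2.19. Both genes remained past the threshold when 1 FPKM was added to both groups.

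The other 5 genes past -1.3 had low levels. Cpr30F had 3.08 and 0.809 FPKM in the control and ablated groups, and Cpr31A had 3.60 and 1.17 FPKM. Cpr47Ee had 1.40 and 0.451 FPKM. The neighboring Tweedle genes TwdlX (1.33 and 0.396 FPKM) and TwdlY (1.34 and 0.366 FPKM) are listed with 4 other genes under 1 common locus on the X chromosome, among them CG9634 with 63.5 and 61.2 FPKM. No source states that strand was used in counting, so values under a common locus are uncertain. With 1 FPKM added to both groups these 5 genes had log2 ratios from -1.17 (Cpr30F) to -0.73 (Cpr47Ee). Cpr31A was the member nearest to the threshold among those past it, at -1.62, and Cpr30B, with 4.47 and 1.88 FPKM, lay just short of it at -1.25.

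Several Cpr genes with a lower level in control pouch cells were among the most abundant cuticle protein genes in the blastema. Cpr49Ah (arm 2R, 8301467 to 8302675, release 5 of the genome) had 14.9 FPKM in the control group and 140.0 FPKM in the ablated group, a 9.40-fold higher value and a log2 ratio of 3.23. Its level moved from percentile 47.7 to percentile 93.0 of the 8694 genes. Cpr64Aa (arm 3L, 4207838 to 4209178) had 5.21 and 45.5 FPKM, a log2 ratio of 3.12. These 2 ratios ranked 53 and 58 from the top of the 8694 genes.

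Cpr51A had 10.5 FPKM in the control group and 56.3 FPKM in the ablated group, a log2 ratio of 2.42. It shares its locus on arm 2R with CG30197, which had 6.64 and 14.3 FPKM, so how reads were divided between them is uncertain. Cpr57A had 5.56 and 16.4 FPKM (log2 ratio 1.56), and Edg91 had 2.38 and 7.18 FPKM (log2 ratio 1.59). TwdlBeta had 1.12 and 5.78 FPKM, a log2 ratio of 2.37, the highest level of any Tweedle gene in the ablated group. Of these 6 genes with 5 FPKM or more in the ablated group, Edg91 alone came below 1.3 with 1 FPKM added, at 1.27.

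The other 5 genes past 1.3 stayed low in both groups. Without a pseudocount the largest ratio of the 45 genes was that of Cpr47Ec, with 0.0877 and 3.04 FPKM (log2 ratio 5.11). It ranked 11 from the top of the 8694 genes with at least 1 FPKM and a ratio. With 1 FPKM added to both groups it was 1.89, below Cpr49Ah (3.15), Cpr64Aa (2.90) and Cpr51A (2.32). Cpr76Bc had 0.0668 and 1.14 FPKM, a log2 ratio of 4.09. TwdlM had 0.334 and 1.81 FPKM, Cpr64Ad had 1.06 and 2.69 FPKM, and Lcp9, a larval cuticle protein gene, had 0.824 and 2.06 FPKM. With 1 FPKM added, Cpr76Bc (1.01), TwdlM (1.08), Cpr64Ad (0.84) and Lcp9 (0.75) all came below the threshold. The log2 ratio of Lcp9, 1.32, was the smallest past the threshold, and TwdlV (0.685 and 1.58 FPKM) was just under it at 1.21.

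**Figure D2:**
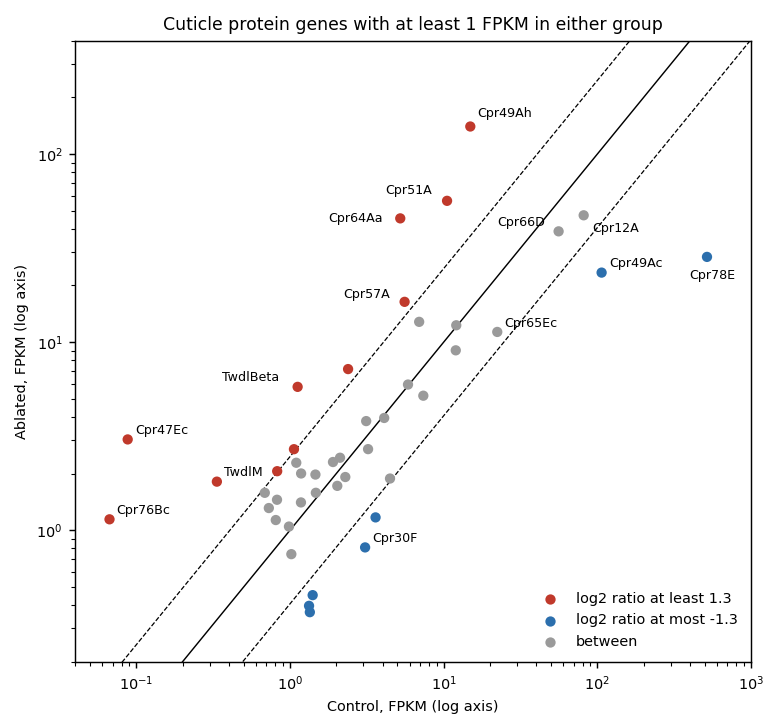
FPKM in the control group (horizontal, log axis) against FPKM in the ablated group (vertical, log axis) for the 45 cuticle protein genes with at least 1 FPKM in either group, 1 point per gene, with the line of equal values and dashed lines at log2 ratios of 1.3 and -1.3. Cpr78E lies farthest below the lines at 517 and 28.4 FPKM, and Cpr49Ah, Cpr51A and Cpr64Aa are the highest of the red points, above the upper dashed line.

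The remaining 27 genes lay between the thresholds, and 16 of the 45 genes had a log2 ratio within 0.5 of 0, which is 35.6% against 67.9% of all genes. Cpr12A, the third most abundant member in both groups, had 81.4 FPKM in the control group and 47.2 FPKM in the ablated group, a log2 ratio of -0.79. Cpr66D had 55.9 and 38.8 FPKM (log2 ratio -0.53), and Cpr65Ec had 22.3 and 11.3 FPKM (log2 ratio -0.98). Cpr67Fb was nearly level at 12.1 and 12.3 FPKM, as was Cpr11A at 5.85 and 5.94 FPKM. Cpr49Ag had 11.97 and 9.04 FPKM, Cpr35B had 6.92 and 12.8 FPKM, and TwdlE, the Tweedle gene with the highest control level, had 7.36 and 5.19 FPKM. Resilin, listed as Cpr56F, had 1.18 and 1.40 FPKM. Pcp, which is known to lie within an intron of the purine synthesis gene ade3, had 0.727 and 1.31 FPKM, beside 58.4 and 54.5 FPKM for ade3 under the same locus.

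The share of genes past the threshold was compared with that of all genes at 3 levels of expression. In the higher direction the difference was largest at 10 FPKM or more, and in the lower direction at 1 to 2 FPKM. Of the 12 cuticle protein genes with 10 FPKM or more in the higher group, 4 were past 1.3 (33.3%) and 2 past -1.3 (16.7%), where 1.84% and 1.91% of all 5656 genes at this level were. From 2 to 10 FPKM the numbers were 5 and 2 of 19 genes (26.3% and 10.5%), where the shares of all 2250 genes were 9.29% and 2.0%. From 1 to 2 FPKM, 2 of 14 cuticle protein genes were past 1.3 (14.3%), below the 23.5% of all 788 genes, and 3 were past -1.3 (21.4%), where 3.43% of all genes were. Those 3 were Cpr47Ee, TwdlX and TwdlY, which reached 1 FPKM in the control group only. With 1 FPKM added to both groups their log2 ratios lay between -0.78 and -0.73. TwdlX and TwdlY also share 1 locus, where values are uncertain. These shares describe the group values and are not tests.

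**Figure D3:**
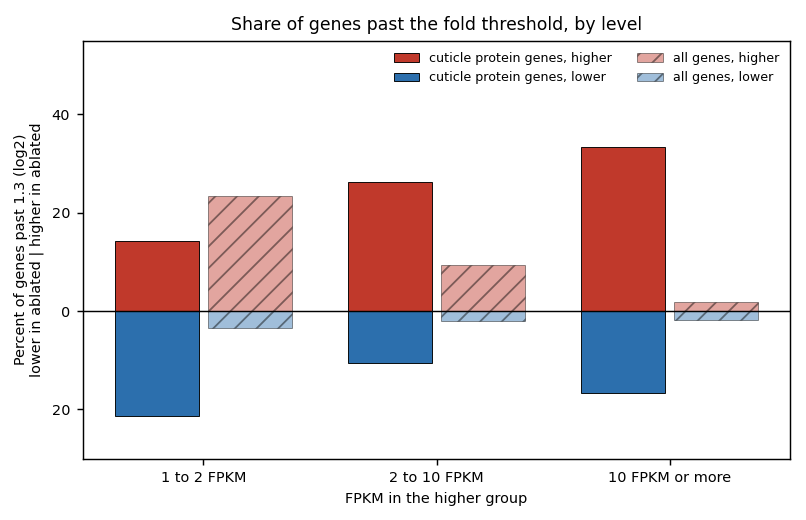
Percent of genes past a log2 ratio of 1.3 (bars above 0) or -1.3 (bars below 0) in 3 classes of FPKM in the higher group, for cuticle protein genes (solid bars, 14, 19 and 12 genes) and for all genes of the table (hatched bars). At 10 FPKM or more the solid bars reach 33.3% and 16.7%, and the hatched bars 1.84% and 1.91%.

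Because FPKM are scaled by length, the levels can be added to see which genes supplied the cuticle protein transcripts. The 122 genes summed to 925 FPKM in the control group and 534 FPKM in the ablated group, a log2 ratio of -0.79, where the sum of all genes had a log2 ratio of -0.28. The direction rested on 1 gene. Cpr78E made up 55.8% of the control sum and 5.31% of the ablated sum, and without it the sums were 409 and 506 FPKM, a log2 ratio of 0.31. In the control group Cpr78E, Cpr49Ac, Cpr12A and Cpr66D together held 82.2% of the sum. In the ablated group the 4 highest genes were Cpr49Ah (26.2%), Cpr51A (10.6%), Cpr12A (8.84%) and Cpr64Aa (8.51%), which together held 54.1%. Of the 4 leading genes of each group, Cpr12A was the one in common.

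**Figure D4:**
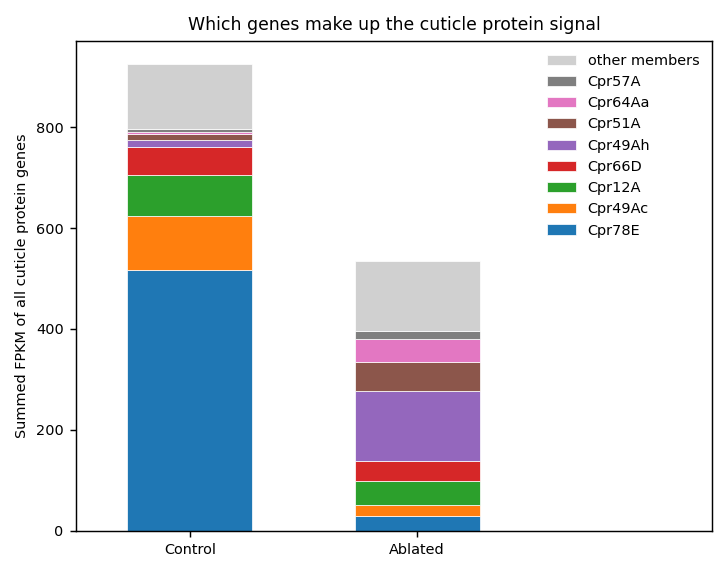
Summed FPKM of all 122 cuticle protein genes (vertical axis) in the control and ablated groups, with 8 genes shown by color and the other genes in gray. The control bar reaches 925 FPKM, of which Cpr78E is the largest block, and the ablated bar reaches 534 FPKM, of which Cpr49Ah is the largest named block.

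Grouped by symbol, the Cpr genes carried nearly all of the signal, with summed levels of 894 FPKM in the control group and 490 FPKM in the ablated group. Of their 30 measured genes, 7 were past 1.3 and 5 past -1.3. The 25 Tweedle genes summed to 21.5 and 25.7 FPKM, and 2 of their 10 measured genes were past the threshold in each direction. The 15 Lcp genes summed to 4.08 and 7.52 FPKM, the 3 Edg genes to 3.40 and 7.97 FPKM, and the 7 Ccp84 genes to 0.811 and 0.850 FPKM.

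Cuticle protein genes lie in runs of neighbors, and levels differed widely between neighbors. With neighbors allowed to be up to 20 kb apart, 91 of the 122 genes fell into 16 clusters of at least 3 genes, and 25 of these 91 (27.5%) had at least 1 FPKM, against 20 of the 31 genes outside clusters (64.5%). The cluster of 8 genes from Cpr49Aa to Cpr49Ah on arm 2R (8264175 to 8302675, release 5 of the genome) held Cpr49Ac and Cpr49Ah, which differed between the groups in opposite directions, and Cpr49Ag, whose log2 ratio was -0.41. Its other 5 genes were at most 0.116 FPKM in either group. The cluster of 7 genes from Cpr47Ea to Cpr47Eg was similar at lower levels, with Cpr47Ec higher and Cpr47Ee lower in the ablated group, and Cpr47Eg at 3.13 and 3.80 FPKM. In the cluster of 4 genes from Cpr64Aa to Cpr64Ad on arm 3L the outer genes were past 1.3, and Cpr64Ac, between them, had 2.03 and 1.72 FPKM.

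The largest cluster, 18 genes from Lcp65Ag3 to Cpr65Az on arm 3L (6123485 to 6154689, release 5 of the genome), was almost silent. Its summed level was 4.32 FPKM in the control group and 7.30 FPKM in the ablated group, and Cpr65Ay (1.18 and 2.001 FPKM) and Cpr65Az (1.46 and 1.97 FPKM) at 1 end were its only genes with at least 1 FPKM. Lcp65Ab1, Lcp65Ab2, Cpr65Ax1 and Cpr65Ax2, which form a duplicated stretch of near-identical copies, are listed at 0 in both groups. Such a 0 may stand for an estimate that failed: RpL15, which all cells use, is also listed at 0, under the same status as these copies. Ef1alpha48D, which all cells use too, is listed at 0 under a different status. Reads from such copies cannot be placed with certainty. The same holds for Cpr67Fa1 (1.10 and 2.28 FPKM) and Cpr67Fa2 (4.10 and 3.95 FPKM), whose division of reads is uncertain. Of the 12 Tweedle genes from TwdlM to TwdlD on arm 3R, TwdlM alone reached 1 FPKM.

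**Figure D5:**
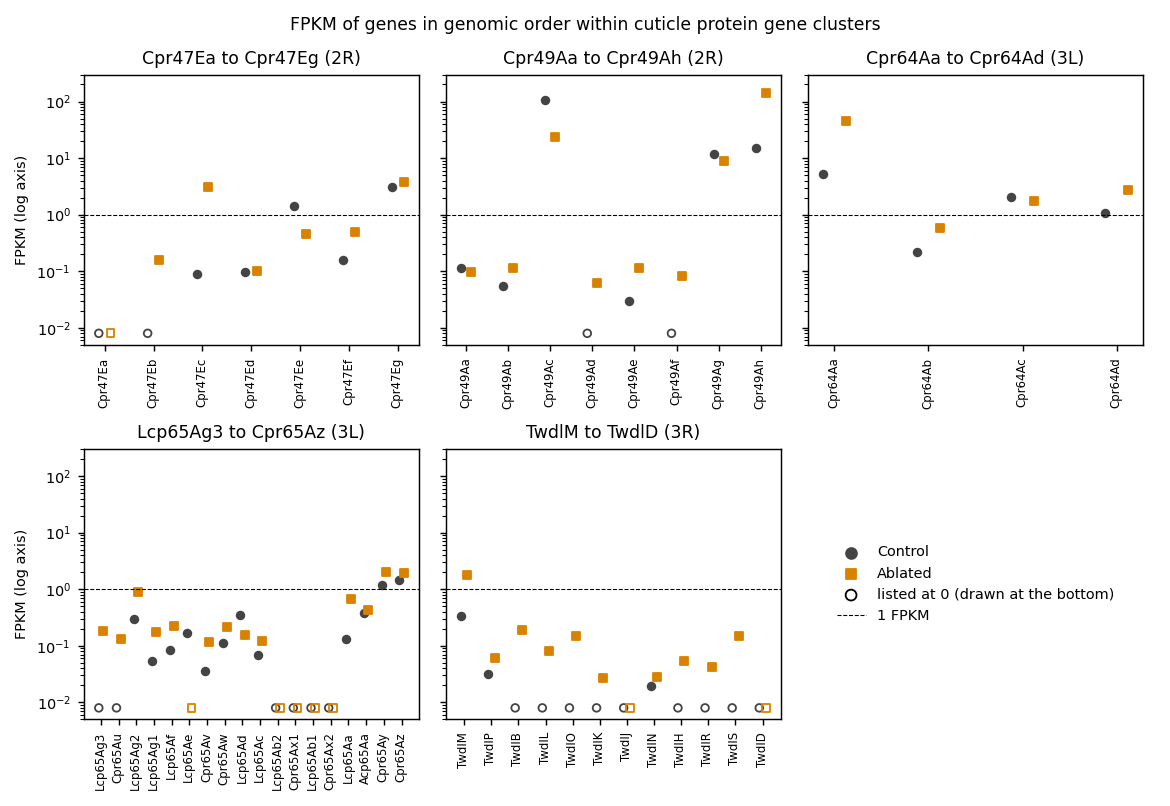
FPKM (log axis) in the control group (circles) and the ablated group (squares) for the genes of 5 cuticle protein gene clusters in genomic order, with a dashed line at 1 FPKM and open symbols at the bottom for values listed at 0. In each cluster 1 to 3 genes reach the line in at least 1 group, beside neighbors under 1 FPKM. Examples are Cpr49Ac at 106 and 23.4 FPKM and Cpr49Ah at 14.9 and 140.0 FPKM.

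The 77 cuticle protein genes under 1 FPKM were given no ratio. Of these, 50 were higher in the ablated group (64.9%), 18 were lower (23.4%) and 9 are listed at 0 in both, where of all 5501 genes under 1 FPKM 55.6% were higher, 14.3% lower and 30.1% at 0 in both. Among genes not at 0 in both groups, 73.5% of 68 cuticle protein genes and 79.6% of 3845 genes were higher. Their median level was 0.0699 FPKM in the control group and 0.116 FPKM in the ablated group. The third instar genes Lcp1, Lcp3 and Lcp4 are among them, with 0.282 and 0.785 FPKM, 0.796 and 0.970 FPKM, and 0.0349 and 0.230 FPKM. The authors' run marked 68 of the 122 genes as not tested, a status for too few reads that RpL15 also has. For a single gene the mark may therefore not reflect a low level.

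The genes also share a structure that the rule did not use. In the longest coding transcript of each gene in the annotation BDGP6.54, in which all 122 were found, the median coding length was 574.5 bases, and 79 genes (64.8%) had exactly 2 coding exons. Of the 105 genes with more than 1 coding exon, 43 (41.0%) had a first coding exon of exactly 12 bases, which is 4 codons. For the 45 cuticle protein genes with at least 1 FPKM the median coding length was 570 bases, and 77.8% had 2 coding exons. Of the spliced ones, 46.5% had a first coding exon of 12 bases. Among all genes with at least 1 FPKM, of which 96.1% were found, the median coding length was 1344 bases and 19.7% had 2 coding exons. Of the spliced genes among them, 0.95% had a first coding exon of 12 bases. Cpr78E and Cpr49Ah, which differed between the groups in opposite directions, both have this 12-base exon, while in Cpr64Aa and Cpr51A the first coding exon has 201 and 60 bases.

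Genes that act with cuticle proteins were counted in the same way, from lists of chitin (23 of 24 genes found), hormone response (19 of 20), tanning (11 of 11) and apical matrix genes (12 of 12). The shares of all genes past 1.3 and -1.3 were 5.73% and 2.07%, as above. Of 20 measured chitin genes, 3 were past 1.3 and none past -1.3, with a median log2 ratio of 0.05, and the chitin synthase gene kkv had 75.4 and 106 FPKM. Cht7, a chitinase-like gene, had 10.6 and 53.9 FPKM. Of 17 measured ecdysone response genes, 1 was past 1.3 and 5 were past -1.3. Hr4, which the paper reports as downregulated under the symbol CG42527, was not matched and is outside these counts. The factor ftz-f1, which in development follows the ecdysone pulse that begins metamorphosis, had 0.895 and 12.02 FPKM. Its regulators Hr46 (34.0 and 0.742 FPKM) and Blimp-1 (6.01 and 0.506 FPKM) were lower in the ablated group. The ecdysone-inducible gene ImpE2 had 4995 and 318 FPKM. Of 9 measured tanning genes, 1 was past the threshold in each direction. Of 11 measured apical matrix genes, 2 were past 1.3 and 5 past -1.3, among them pio, which encodes an apical matrix protein, with 340.2 and 126 FPKM.

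Markers of the sorted cells and of others the gate could hold were read beside these values. Of 6 wing pouch markers, 5 were lower in the ablated group, among them nub (89.9 and 51.8 FPKM), rn (31.0 and 18.9 FPKM) and dve (37.9 and 4.11 FPKM), while sd had 87.6 and 95.02 FPKM. Both groups had rpr, at 70.3 and 55.2 FPKM, so its level at this time gives no check of the labels. Low values were mostly higher in the ablated group throughout the table, in 79.7% of genes at 1 to 2 FPKM and in 79.6% of genes under 1 FPKM that were not at 0 in both groups. All 6 myoblast markers were higher in the ablated group, 5 of them past 1.3, with a summed level of 6.005 FPKM in the control group and 34.9 FPKM in the ablated group. Of all genes with a ratio, 5.73% were past 1.3, and 23.5% of those at 1 to 2 FPKM. Of the 5 markers, twi, htl, Him and stumps reached 1 FPKM in the ablated group only. The control sum came mostly from Mef2 (4.41 and 12.7 FPKM). This list was chosen with earlier results of these data known. All 6 fat body markers were also higher (1.76 and 4.24 FPKM summed), 5 of them at under 1 FPKM in both groups. The 9 notum and hinge markers were mixed: 6 were higher, 2 of them past 1.3, and Doc1 (45.5 and 5.67 FPKM), Doc2 (18.8 and 1.9003 FPKM) and Doc3 (20.9 and 6.94 FPKM) were past -1.3. Of 7 hemocyte markers, 6 were higher and 4 were under 1 FPKM in both groups, with Hml at 0.0133 and 0.0606 FPKM and a summed level of 26.3 and 23.1 FPKM that came mostly from crq. Of 9 tracheal markers, 6 were higher, with a summed level of 827 and 955 FPKM that came mostly from verm, Gasp and serp, which the chitin list also holds, and the tracheal factor trh had 21.8 and 3.64 FPKM. The part of other cells in the cuticle protein values was not tested, and in pooled cells a smaller number of expressing cells and less RNA per cell cannot be told apart.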

How the data were processed

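RNA from FACS-sorted nub-GFP cells was sequenced from stranded libraries, 3 samples per group. The authors trimmed the reads, aligned them with Tophat2 (version 0.6 per the labels, at most 2 mismatches) to release 5 of the genome with its gene models, and estimated FPKM with Cufflinks (version 0.0.7 per the labels), with corrections for bias and for multiply mapped reads. Cuffdiff scaled the libraries geometrically and combined each group. The deposited FPKM are these group values. The fold change, test statistic, p-value and q-value columns hold the authors' own comparison and were not used. No columns of single samples were analysed here, so depth per sample and counting intervals are not given.

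The members and lists were chosen with earlier results of these data known. Log2 ratios, ablated over control, were computed with no pseudocount where the larger FPKM was 1 or more and both were above 0. A gene was counted past the fold at 1.3 or -1.3. Every member with at least 1 FPKM could be named, with values in full for the 12 largest ratios in each direction and the 10 highest levels. Symbols were matched to RefSeq release 6 and BDGP6.54 by name or by a synonym of 1 gene only. The starts of loci count from 0 in the table and are given here from 1. Alternatives were minimum levels of 0.1, 5 and 0 FPKM, pseudocounts of 0.1 and 1 FPKM, thresholds of 1.0 and 1.5, centring on the median of all genes, equal sums, centring within 20 bins of mean FPKM, and removal of genes with a shared locus. The counting was tested on simulated data. Promoters and proteins were not analysed here. Python 3.11.15, numpy 2.4.6, pandas 2.3.3 and matplotlib 3.10.9 were used.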

Additional observations from a re-analysis of the deposited data

How the results depend on the processing

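The median log2 ratio of the measured genes, 0.20, kept its sign except with centring within bins of mean FPKM, where it was -0.29. It was 0.54 with both groups rescaled to the same sum, and 0.024 with a minimum of 5 FPKM. The log2 ratio of the summed levels, -0.79, was -0.51 with equal sums, -0.95 without genes that share a locus and 0.31 without Cpr78E. A minimum of 0.1 FPKM left 92 genes, and one of 5 FPKM left 16. The number past 1.3, which was 11, was 24 with a minimum of 0.1 FPKM, 25 with no minimum, 6 with a minimum of 5 FPKM and 6 with a pseudocount of 1 FPKM. The number past -1.3, which was 7, was 2 with a minimum of 5 FPKM and 2 with a pseudocount of 1 FPKM. Under the other settings both numbers stayed within 1.5 times. Across all genes, the share past 1.3 was 11.4% with a minimum of 0.1 FPKM, 12.5% with no minimum and 2.39% with 5 FPKM. The share past -1.3 was 2.06% with a minimum of 5 FPKM. With a pseudocount of 1 FPKM, 2.14% of all genes were past 1.3 and 1.72% past -1.3. Rescaling to equal sums moved the median of all genes to 0.27. Of the 45 genes, 10 came below the threshold with a pseudocount of 1 FPKM. A pseudocount, minimum or threshold cannot change the sign of a ratio. Centring on the median of all genes and equal sums shifted every ratio by less than 1.3, so neither could do so for genes past the threshold. With centring within bins of mean FPKM, which could, no gene past the threshold changed sign. No paired analysis was possible because the values used are 1 per gene and group and carry no replicate number, and for the same reason no replicate could be left out.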
